A study of Mus musculus with 15 samples.

Results

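Mouse B cells that leave a germinal centre or become plasma cells find their way with a small set of surface receptors, and 10 of these genes are described here: the chemokine receptors Cxcr4, Cxcr5, Cxcr3, Ccr6, Ccr7 and Ccr10, the lipid receptors S1pr1 and Gpr183, and the integrin chains Itga4 and Itgb7. They were chosen by symbol, as the rows of the deposited table whose gene identifiers map to these names, and all 10 of 10 were found among 51912 genes. The study grew wild-type mouse B cells in vitro on a layer of 40LB cells, a fibroblast feeder line that supplies survival and activation signals, with 100 ng/ml of IL-4 over 6 days. It then sequenced polyA RNA from 5 groups of 3 biological replicates (15 libraries). The D6 group is the unsorted culture at day 6, still with its feeder layer. The other groups were taken at day 8, after 2 further days off the feeder layer in medium without stimulation, and were sorted as IgE iGC, IgG1 iGC, IgE plasma cells (PC) and IgG1 PC. The term iGC is the labels' own and stands for the sorted cells that had not become PC. None of the groups received another treatment. Every group is therefore a culture product and not a cell taken from an animal, and every comparison with D6 spans sorting, feeder removal and time together, which cannot be told apart.

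Chemokine receptors and the lipid receptors S1PR1 and GPR183 are G protein-coupled receptors that steer lymphocytes along gradients of ligands made by stromal cells. Follicular B cells are held in place by CXCR5 and GPR183, meet T cells through CCR7, and leave lymphoid tissue through S1PR1. Plasma cells are known for losing the follicular receptors and for using CXCR4, whose ligand CXCL12 is made in bone marrow. Integrins are pairs of an alpha and a beta chain that fasten cells to vessel walls and stroma. The alpha 4 chain binds VCAM1 when paired with beta 1 and the gut vessel molecule MAdCAM-1 when paired with beta 7.

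Total expected counts per library ranged from 17.7 M to 54.1 M. The members' counts were whole numbers in every library, so no reads of these genes were shared out between similar genes. The sorted groups carried their labelled isotype: Ighe averaged 6072 CPM (counts scaled by TMM to a common library size) in IgE iGC, 353 in IgG1 iGC, 125634 in IgE PC and 1799.7 in IgG1 PC, and Ighg1 922, 6203, 1821 and 85554. The plasma cell gene Sdc1 averaged 326 CPM in IgE PC and 170.1 in IgG1 PC, and 2.17 and 1.41 in the matching iGC. The 8 feeder (fibroblast) markers summed to 196 to 322 CPM in D6 libraries, 62.9 to 187 in IgG1 PC, 21.4 to 35.3 in IgE PC and no more than 67.5 in iGC. The 5 B cell markers summed to 3172 to 3343 CPM in IgE PC, 4358 to 4496 in IgG1 PC and 7452 to 7717 in IgE iGC. The 4 germinal centre markers summed to 74.5 to 77.6 CPM in IgE PC, 124 to 154 in IgG1 PC and 468 to 504 in IgE iGC, and the 6 plasma cell markers to 16299 to 18767 in IgE PC and 9102 to 13380.1 in IgG1 PC. T cell markers summed to at most 1.95 CPM and mast cell or basophil markers to at most 0.472 in any library, with Cd3e at 0 in all but 1. In these bulk libraries, fewer cells with a gene and less RNA of it per cell cannot be told apart.

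The 10 genes lie on 9 chromosomes, in coordinates of GENCODE vM21 (GRCm38). Ccr7 (chromosome 11, 99144196 to 99155077, minus strand) and Ccr10 (chromosome 11, 101172997 to 101175443, minus strand) share one. Itga4 shares 1124 of its 13978 exon bases with Cerkl on the opposite strand, and Cxcr5 shares 110 of 3332 with Bcl9l. The libraries keep strand, per the labels' protocols, but whether the counting used it is not given in the sources used here. Cerkl stood at 1.07 to 2.58 CPM in the 5 group means and Bcl9l at 53.5 to 186.

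The promoters of 4 genes are shown because the CPM values set them in pairs. Cxcr4 and Itga4 were higher in IgE PC than in any other group. Ccr6 and Itgb7 were high in iGC and low in IgE PC. Per transcript length (TPM), Itga4 in IgE PC (34.87 to 37.31) overlapped IgE iGC (31.75 to 38.02) and IgG1 iGC (31.77 to 37.7). Each window is the 240 bases that end 10 bases before the annotated start, from RefSeq (GRCm38.p6), read 5′ to 3′ on the gene's strand. Capitals mark CACCC or its reverse complement GGGTG, the core of the letters bound by KLF factors such as KLF2, whose gene was measured here too. RefSeq's table matched 6 of the 10 members, with a second start for Ccr6 that is not shown.
Cxcr4, chr1:128592310-128592549, minus strand: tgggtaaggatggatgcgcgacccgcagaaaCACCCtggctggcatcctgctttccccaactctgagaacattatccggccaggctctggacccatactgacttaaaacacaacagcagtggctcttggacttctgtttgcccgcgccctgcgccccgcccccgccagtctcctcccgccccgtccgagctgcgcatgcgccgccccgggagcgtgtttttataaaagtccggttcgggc
Itga4, chr2:79255176-79255415, plus strand: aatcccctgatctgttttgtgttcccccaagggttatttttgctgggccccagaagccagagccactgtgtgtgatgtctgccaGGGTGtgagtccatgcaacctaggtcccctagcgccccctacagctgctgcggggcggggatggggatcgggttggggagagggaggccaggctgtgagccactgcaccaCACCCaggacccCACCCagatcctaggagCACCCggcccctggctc
Ccr6, chr17:8235793-8236032, plus strand: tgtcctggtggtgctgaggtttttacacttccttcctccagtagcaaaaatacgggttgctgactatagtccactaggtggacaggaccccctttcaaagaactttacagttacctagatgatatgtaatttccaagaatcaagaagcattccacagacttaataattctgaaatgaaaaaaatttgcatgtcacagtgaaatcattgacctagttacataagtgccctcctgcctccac
Itgb7, chr15:102231946-102232185, minus strand: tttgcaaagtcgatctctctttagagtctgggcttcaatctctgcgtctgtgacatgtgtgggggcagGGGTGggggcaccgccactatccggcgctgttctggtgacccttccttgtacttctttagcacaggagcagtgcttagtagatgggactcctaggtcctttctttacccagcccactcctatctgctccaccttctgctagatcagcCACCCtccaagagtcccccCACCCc
The letters occurred 4 times in the Itga4 window, 3 times in Itgb7, 1 time in Cxcr4 and 0 times in either Ccr6 window, counting both strands. Of 32851 promoter windows of the same length, 50.6% held at least 1 match, so a match here is a common feature and only a description of these letters. Letters bound by other factors were scanned in these windows too and are not described here.

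The levels of the 10 genes fell into 3 patterns, which the plot of levels by library shows. Cxcr5, Ccr6, Ccr7, S1pr1 and Itgb7 were highest in iGC of either isotype. Cxcr4 and Itga4 were highest in IgE PC in CPM, though per transcript length Itga4 there overlapped IgE iGC and IgG1 iGC. Gpr183 was highest in D6, and Cxcr3 and Ccr10 stayed below 4 CPM in every library. Counted per transcript length (TPM), the leading member changed with the group: Gpr183 in D6 (80.97 ± 0.497 TPM, SD, n = 3), Ccr6 in IgE iGC (183 ± 15.3) and IgG1 iGC (193 ± 10.05), Cxcr4 in IgE PC (64.99 ± 3.69) and Cxcr5 in IgG1 PC (54.1 ± 5.32). In IgE PC, Itga4 came second at 36.4 ± 1.31 TPM with Cxcr5 next at 21.04 ± 3.43, whereas Ccr6 was sixth at 4.78 ± 0.577 TPM.

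**Figure D1:**
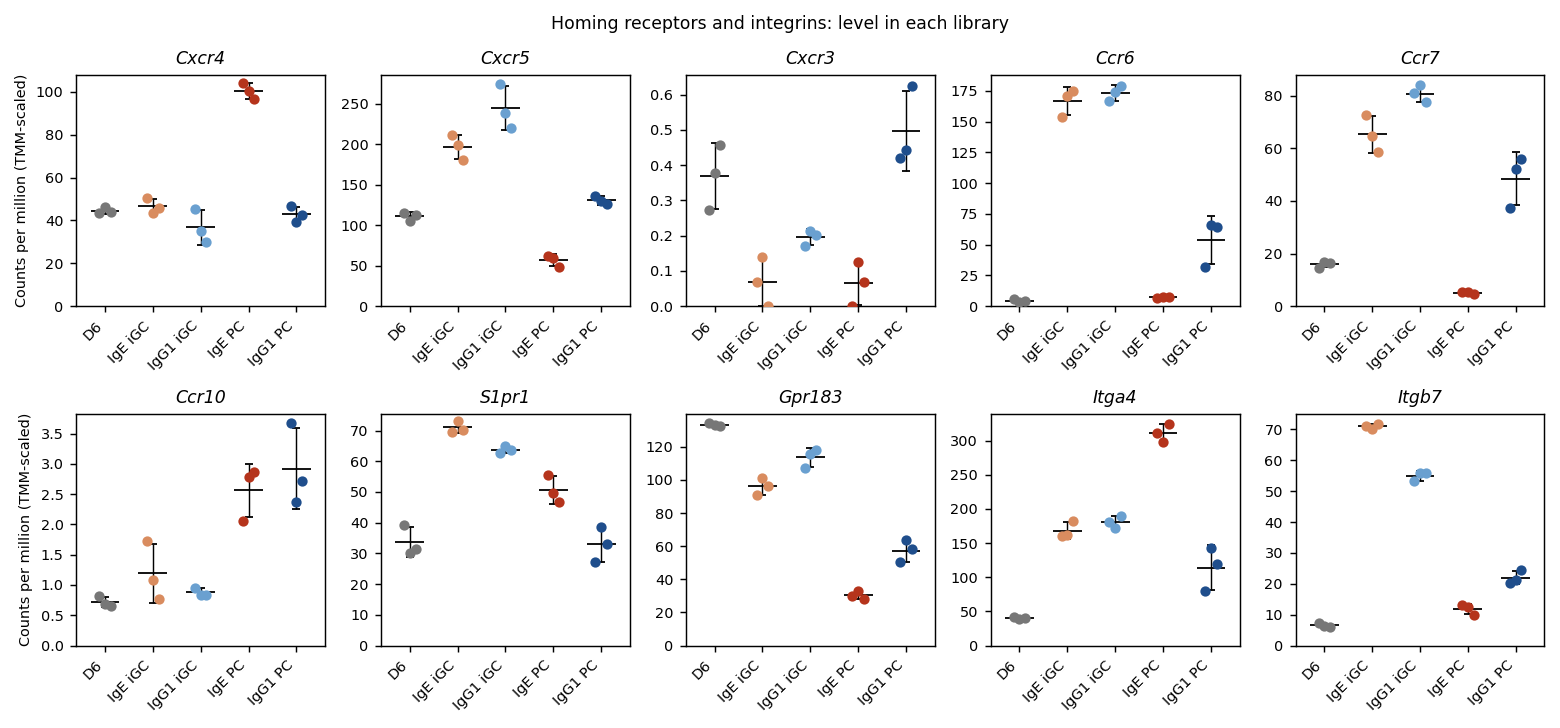
Level of each gene in CPM (y axis, linear, own scale per gene) in the 15 libraries, by group; points are libraries, bars the mean ± SD of 3. Cxcr4 in IgE PC sits between 96.6 and 104 CPM, above all 12 other libraries, which reach 50.5 at most.

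Plasma cells of both isotypes held less RNA for the follicle and T zone receptors than iGC, and IgE PC held the least. Ccr7, the receptor for CCL19 and CCL21 that draws B cells toward the T zone, stood at 72.7, 64.8 and 58.7 CPM in replicates 1 to 3 of IgE iGC and at 80.9, 84.1 and 77.4 in IgG1 iGC. Its values were 5.31, 5.24 and 4.81 CPM in IgE PC, 37.2, 52.2 and 56.1 in IgG1 PC and 14.6, 16.9 and 16.3 in D6. No 2 groups overlapped, and IgE PC was the only group below D6. Within IgE, Ccr7 was 12.8-fold lower in PC than in iGC (log2 fold change -3.68 ± 0.14 (SE), adjusted p = 4.8e-12, edgeR's quasi-likelihood test with Benjamini-Hochberg adjustment, as for all adjusted p-values below unless another tool is named). Within IgG1 it was 1.66-fold lower (log2 fold change -0.73 ± 0.12 (SE), adjusted p = 8.3e-05). The difference between these steps, tested as the interaction, was -2.94 (adjusted p = 3.9e-08) on the log2 scale, and IgE PC held 9.48-fold less Ccr7 than IgG1 PC (log2 fold change -3.25 ± 0.14 (SE), adjusted p = 2.4e-10).

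Ccr6, the receptor for CCL20 that marks B cells bound for mucosal tissue and memory, showed the widest span of the 10 genes. It read 5.63, 3.81 and 4.36 CPM in D6, 153, 171 and 175 in IgE iGC and 166, 174 and 179 in IgG1 iGC. In PC it read 6.33, 7.86 and 7.18 CPM for IgE and 31.7, 65.7 and 64.3 for IgG1. The iGC isotypes overlapped, every PC library was below every iGC library, and replicate 1 was the lowest of the 3 IgG1 PC libraries. Ccr6 was 36.1-fold higher in IgE iGC than in D6 (log2 fold change 5.17 ± 0.25 (SE), adjusted p = 4.6e-10) and 37.5-fold higher in IgG1 iGC. From iGC to PC it fell 23.4-fold in IgE (log2 fold change -4.55 ± 0.24 (SE), adjusted p = 7.8e-10) and 3.19-fold in IgG1 (log2 fold change -1.67 ± 0.20 (SE), adjusted p = 9.7e-06), a difference between steps of -2.87 (adjusted p = 7.9e-06). Without replicate 1 of IgG1 PC, the difference between IgE PC and IgG1 PC moved from -2.93 to -3.19 (log2). IgE PC was called above D6 for Ccr6 (0.62 (adjusted p = 0.044)), but that direction reversed on the TPM scale (-0.26) and the call was lost in 6 of the other 12 alternatives, total-count scaling (0.094) among them.

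Cxcr5, the CXCL13 receptor that places B cells in follicles, fell less. It stood at 211, 199 and 180.3 CPM in IgE iGC, 275, 239 and 220.5 in IgG1 iGC, 62.2, 59.9 and 48.002 in IgE PC, 136, 129.8 and 126 in IgG1 PC and 115, 105 and 113 in D6. The 5 groups did not overlap, and IgE PC was again the lowest. The fall from iGC to PC was 3.47-fold in IgE (log2 fold change -1.79 ± 0.10 (SE), adjusted p = 2.3e-10) and 1.88-fold in IgG1 (log2 fold change -0.91 ± 0.10 (SE), adjusted p = 1.1e-06). IgE PC held 2.299-fold less than IgG1 PC (log2 fold change -1.20 ± 0.10 (SE), adjusted p = 7.7e-08). IgG1 PC was called slightly above D6 (0.23 (adjusted p = 0.039)), a direction that reversed with total-count scaling (-0.049) and on the TPM scale (-0.53); the call was lost in 6 more of 13 alternatives. Feeder, B cell, germinal centre and myeloid markers were all higher in IgG1 PC than in IgE PC beside the Ccr6, Ccr7 and Cxcr5 values. The part of these markers in the differences was not tested.

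Cxcr4, the CXCL12 receptor that keeps plasma cells in bone marrow, moved the other way and in 1 isotype. IgE PC libraries held 104, 100.2 and 96.6 CPM, against 50.5, 43.3 and 45.9 in IgE iGC, 46.5, 39.5 and 42.7 in IgG1 PC, 45.5, 35.1 and 29.8 in IgG1 iGC and 43.3, 46.1 and 43.7 in D6. The remaining groups overlapped one another in the order of their levels, and IgE PC stood apart from all of them. In IgE, Cxcr4 rose 2.15-fold from iGC to PC (log2 fold change 1.11 ± 0.11 (SE), adjusted p = 4.9e-07). In IgG1 the same step gave log2 fold change 0.22 ± 0.11 (SE), adjusted p = 0.12, which did not pass, and its sign turned with total-count scaling (-0.015) and on the TPM scale (-0.32). The interaction was 0.89 (adjusted p = 5.0e-04). IgE PC exceeded IgG1 PC 2.34-fold (log2 fold change 1.23 ± 0.11 (SE), adjusted p = 3.8e-07). The lower level of IgG1 iGC against D6 was barely called (-0.27 (adjusted p = 0.049)) and lost in 7 alternatives.

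Ccr10, a receptor for CCL27 and CCL28 known from plasma cells of mucosal tissue, was scarce but rose in both kinds of PC. It read 2.06, 2.78 and 2.86 CPM in IgE PC and 3.67, 2.37 and 2.72 in IgG1 PC, against 1.73, 1.08 and 0.775 in IgE iGC, 0.956, 0.832 and 0.8402 in IgG1 iGC and 0.817, 0.687 and 0.6597 in D6. Every PC library lay above every other library, and the 2 PC groups overlapped. The rise from iGC was 2.07-fold in IgE (log2 fold change 1.05 ± 0.26 (SE), adjusted p = 0.0023) and 3.2996-fold in IgG1 (log2 fold change 1.72 ± 0.26 (SE), adjusted p = 4.8e-05). On the TPM scale the IgE rise did not pass (0.29, adjusted p = 0.14 with limma). The steps of the 2 isotypes did not differ past the threshold (interaction -0.67 (adjusted p = 0.16)), and neither did IgE PC and IgG1 PC (log2 fold change -0.18 ± 0.25 (SE), adjusted p = 0.55). Against D6, Ccr10 was called higher in IgE iGC (0.77 (adjusted p = 0.021)), but without replicate 1 of IgE iGC the value was 0.40 and no longer called.

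Cxcr3, the receptor for CXCL9, CXCL10 and CXCL11 that guides cells into inflamed tissue, was close to the detection limit. The libraries held 12, 23 and 29 counts in IgG1 PC, 0, 4 and 2 in IgE PC, 7, 8 and 7 in IgG1 iGC, 3, 5 and 0 in IgE iGC and 12, 16 and 18 in D6. All were under 1 CPM, and each IgG1 PC library held more than each IgE PC library. It passed the filter on low counts through D6 and IgG1 PC, its higher groups, so its calls against those groups are given as a description. The value for IgE PC against IgG1 PC was -2.91 (adjusted p = 0.0011), and -2.91 (adjusted p = 4.8e-04) with no filter on low counts. With counts this low a single library set its size: the log2 value was -2.29 without IgE PC replicate 1 and -3.83 without replicate 2. The same holds for its fall from D6 to IgE PC (-2.47 (adjusted p = 0.0029)), which was -1.85 and -3.39 without those libraries. Its rise from IgG1 iGC to IgG1 PC (log2 fold change 1.34 ± 0.51 (SE), adjusted p = 0.035) lost its call in 7 alternatives, among them each of the 3 that leave out a single IgG1 iGC library.

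The lipid receptors separated. S1pr1, which senses sphingosine 1-phosphate and lets lymphocytes exit into blood and lymph, read 39.2, 30.02 and 31.6 CPM in D6, 69.7, 73.1 and 70.3 in IgE iGC and 62.6, 64.9 and 63.6 in IgG1 iGC. It read 55.5, 49.8 and 46.6 CPM in IgE PC and 27.05, 38.6 and 33.2 in IgG1 PC. Both PC groups were below both iGC groups, IgE PC lay above IgG1 PC in every library, and IgG1 PC overlapped D6. The fall from iGC to PC was 1.402-fold in IgE (log2 fold change -0.49 ± 0.11 (SE), adjusted p = 0.0013) and 1.93-fold in IgG1 (log2 fold change -0.95 ± 0.11 (SE), adjusted p = 4.7e-06). IgE PC exceeded IgG1 PC 1.53-fold (log2 fold change 0.61 ± 0.11 (SE), adjusted p = 2.9e-04), and the steps differed by 0.46 (adjusted p = 0.03), a call lost in 9 alternatives. Above D6 in IgE PC (0.59 (adjusted p = 2.2e-04)), S1pr1 was below it on the TPM scale (-0.28).

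Gpr183, also called EBI2, follows oxysterols to the outer follicle and was the 1 member besides Cxcr3 to be called lower than D6 in IgE iGC. Its values were 135, 133 and 133 CPM in D6, 90.9, 101 and 96.4 in IgE iGC, 107, 116 and 118 in IgG1 iGC, 30.1, 32.9 and 27.96 in IgE PC and 50.3, 63.6 and 58.005 in IgG1 PC. These 5 groups did not overlap. Gpr183 fell 3.17-fold from iGC to PC in IgE (log2 fold change -1.67 ± 0.08 (SE), adjusted p = 5.5e-11) and 1.98-fold in IgG1 (log2 fold change -0.99 ± 0.08 (SE), adjusted p = 4.9e-08), and the interaction was -0.68 (adjusted p = 2.1e-04). It was 1.89-fold lower in IgE PC than in IgG1 PC (log2 fold change -0.92 ± 0.08 (SE), adjusted p = 1.7e-07).

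**Figure D2:**
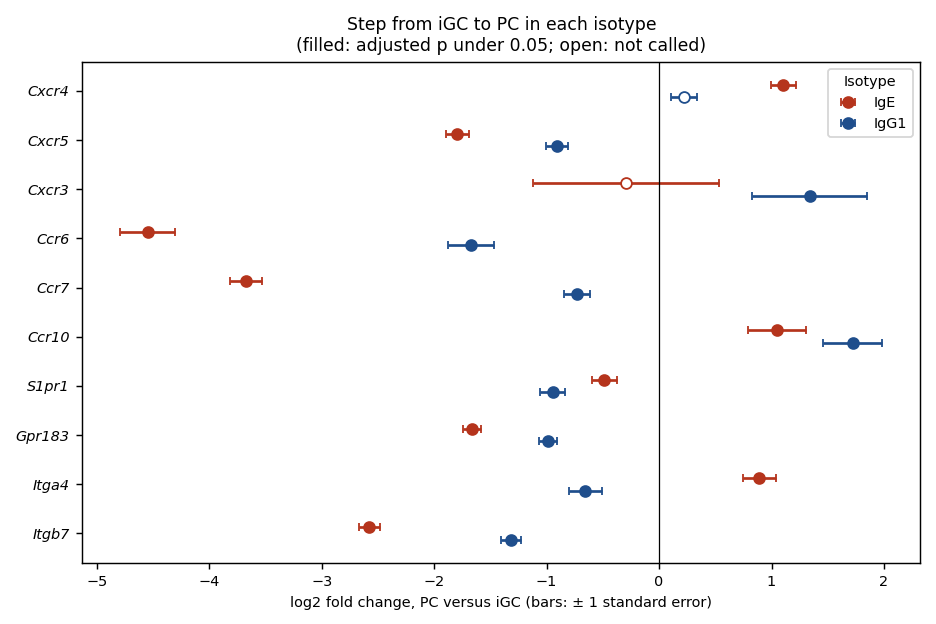
Log2 fold change from iGC to PC (x axis, with bars of ± 1 SE) for each gene in IgE and IgG1 cells; filled points passed adjusted p under 0.05. Itga4 lies to the right of 0 in IgE (0.89) and to the left in IgG1 (-0.66), and Ccr6 and Ccr7 lie far left in IgE.

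The integrin chains parted in IgE PC. Itga4, the alpha 4 chain, read 312, 298 and 325 CPM in IgE PC, 79.3, 143 and 120.02 in IgG1 PC, 160.1, 162 and 182 in IgE iGC, 180.3, 171 and 189 in IgG1 iGC and 41.8, 39.3 and 39.7 in D6. The iGC groups overlapped, all IgE PC libraries were above them and all IgG1 PC libraries below. Itga4 rose 1.86-fold from iGC to PC in IgE (log2 fold change 0.89 ± 0.14 (SE), adjusted p = 6.3e-05) and fell 1.58-fold in IgG1 (log2 fold change -0.66 ± 0.14 (SE), adjusted p = 0.0013), and the steps differed by 1.55 (adjusted p = 3.6e-05). IgE PC held 2.72-fold more than IgG1 PC (log2 fold change 1.45 ± 0.15 (SE), adjusted p = 1.0e-06), or 1.24 on the log2 scale without the low replicate 1 of IgG1 PC. That library was the lowest of its group in Ccr6, Ccr7, Itga4, S1pr1, Gpr183, Itgb7 and Cxcr3. It was the highest in Cxcr4, Cxcr5 and Ccr10. It had the highest plasma cell marker sum of the 3 (13380.1 CPM against 9850 and 9102) and the lowest germinal centre marker sum (124 against 154 and 142). Its B cell marker sum lay between the others (4442 against 4496 and 4358). The part of these sums in its values was not tested. On the TPM scale the IgE rise was 0.10 (adjusted p = 0.7 with limma), where the median of all genes was -0.57, and with total-count scaling it was 0.42 (adjusted p = 0.029). All 3 scales placed Itga4 higher in IgE PC than in IgG1 PC.

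Itgb7, the beta 7 chain, followed the follicular receptors instead. It read 7.17, 6.398 and 6.09 CPM in D6, 71.1, 70.2 and 71.7 in IgE iGC, 53.2, 55.7 and 55.8 in IgG1 iGC, 13.3, 12.4 and 9.94 in IgE PC and 20.3, 21.2 and 24.3 in IgG1 PC. These groups did not overlap. Itgb7 was 10.8-fold higher in IgE iGC than in D6 and 8.37-fold higher in IgG1 iGC (log2 fold changes 3.44 (adjusted p = 5.6e-13) and 3.06 (adjusted p = 1.5e-12)). It fell 5.97-fold from iGC to PC in IgE (log2 fold change -2.58 ± 0.10 (SE), adjusted p = 2.3e-12) and 2.496-fold in IgG1 (log2 fold change -1.32 ± 0.09 (SE), adjusted p = 7.7e-09), and the interaction was -1.26 (adjusted p = 2.6e-06). The 2 PC groups differed by -0.89 (adjusted p = 1.3e-06). Its level in IgE PC was called above D6 (0.86 (adjusted p = 1.3e-06)), with the opposite sign on the TPM scale (-0.036).

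Because both beta chains compete for the alpha 4 chain, their levels were compared per length. Itgb1, the beta 1 chain, was at 83.2 ± 7.52 TPM in D6 and 18.5 ± 0.591 in IgE PC. Itgb7 made up 5.11 ± 0.91002% of the Itgb7 and Itgb1 TPM in D6 (SD, n = 3), 55.6 ± 0.904% in IgE iGC, 41.5 ± 0.153% in IgG1 iGC, 18.97 ± 3.22% in IgE PC and 29.2 ± 1.28% in IgG1 PC. The libraries of the 5 groups did not overlap in this share. Itga4 stood at 8.53 ± 1.37 times the Itgb7 level in IgE PC and 1.63 ± 0.529 times in IgG1 PC, against 0.786 ± 0.0747 in IgE iGC. Itgb1 RNA also comes from fibroblasts, and the feeder markers were highest in D6, so their part in the D6 share was not tested. Itgae, the other partner of beta 7, averaged at most 0.139 CPM in any group and was too low to be tested.

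**Figure D3:**
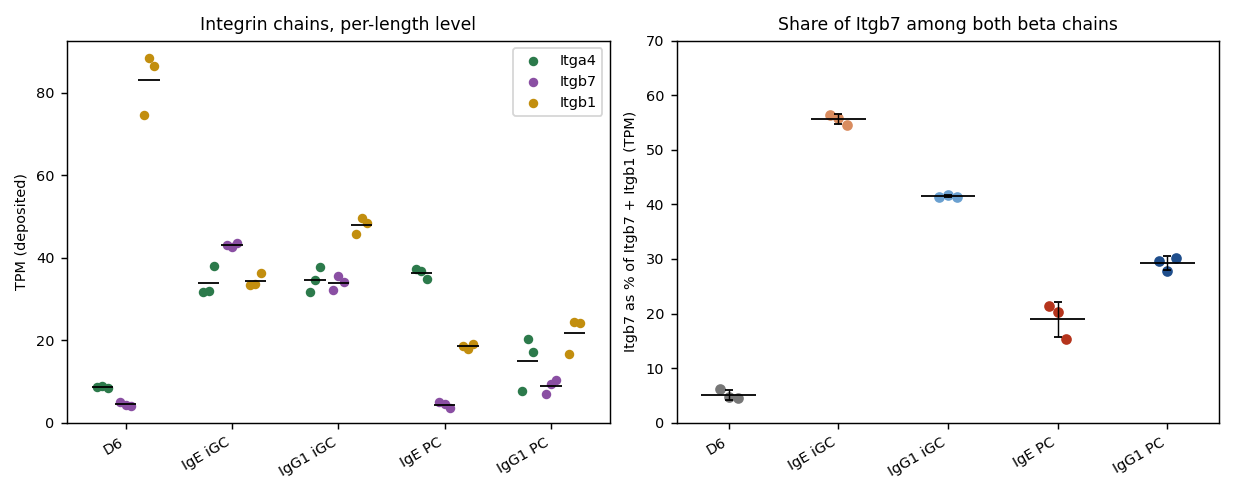
Left, TPM of Itga4, Itgb7 and Itgb1 in each library by group, with a line at the mean; right, Itgb7 as a percentage of the Itgb7 and Itgb1 TPM, with mean ± SD of 3. The share runs from 5.11% in D6 to 55.6% in IgE iGC, and Itga4 stays near 36.4 TPM in IgE PC while Itgb7 is at 4.35.

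Between IgE PC and IgG1 PC, 9 of the 10 genes were called, 3 higher in IgE (Cxcr4, S1pr1 and Itga4) and 6 lower, where 58.1% of the 15692 genes tested were called, 27.4% higher and 30.7% lower. All 10 passed the filter on low counts, Cxcr3 through D6 and IgG1 PC, where it is highest. Without Cxcr3, 8 of 9 were called, 3 higher and 5 lower. The median log2 fold change of the 10 was -0.90, against -0.05 over all genes. The iGC were sorted at day 8 like the PC, and fewer of the 10 genes were called between their isotypes. Between IgE iGC and IgG1 iGC only Itgb7 was called (1 of 10, where 3.87% of all genes were called), at log2 fold change 0.37 ± 0.09 (SE), adjusted p = 0.024. That call was lost with total-count scaling, on the TPM scale and without any single library of either iGC group. The replicate ranges of 6 of the 10 genes did not overlap between these groups, which was so for 27.5% of all genes. Of the genes not called, Cxcr3 gave -1.28 and Ccr10 0.49 at low counts (adjusted p of 0.42 and 0.46). Cxcr4 gave 0.34, Cxcr5 -0.32 and Ccr7 -0.30 (adjusted p of 0.14, 0.089 and 0.22), also not called.

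In the IgE step from iGC to PC 9 of 10 genes were called, 3 higher and 6 lower, where 64.1% of all genes were called, 30.5% higher and 33.6% lower. In the IgG1 step 9 of 10 were called, 2 higher and 7 lower, where 59.1% of all genes were called, 30.1% higher and 29.0% lower. Cxcr3, which passed the filter through D6 and IgG1 PC, was among the 2 higher, and its call is a description. Member medians were -1.08 and -0.82, with medians over all genes of -0.08 and 0.01. On the TPM scale the splits were 1 higher and 6 lower in IgE, and 1 and 8 in IgG1. Of all genes called on that scale, 84.0% were lower in the IgE step and 84.6% in the IgG1 step. The steps differed between isotypes for 8 of the 10 genes, where 42.9% of all genes were called, 19.8% higher and 23.1% lower. Cxcr4, Itga4 and S1pr1 had positive values (a larger rise or smaller fall in IgE), and Cxcr5, Ccr6, Ccr7, Gpr183 and Itgb7 negative ones. With total-count scaling 2 were positive and 6 negative, since the S1pr1 call was lost and Ccr10 was called at -0.90. Of all genes called with that scaling, 78.4% were negative. Without replicate 1 of IgG1 PC the interaction was -3.13 for Ccr6, -3.10 for Ccr7 and 1.35 for Itga4, each still called.

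The 4 comparisons with the day 6 culture share the D6 libraries. In IgE iGC 9 of 10 genes were called, 7 higher and 2 lower, where 69.1% of all genes were called, 32.8% higher and 36.3% lower. Cxcr3, whose calls against D6 are a description, was among the 2 lower. In IgG1 iGC 8 of 10 were called, 6 higher and 2 lower, where 68.4% of all genes were called, 32.4% higher and 36.0% lower. Ccr6, Itgb7, Itga4, Ccr7 and S1pr1 led the rises in IgE iGC, at 5.17, 3.44, 2.06, 2.04 and 1.08 on the log2 scale, and their values in IgG1 iGC were 5.23, 3.06, 2.16, 2.34 and 0.92. In IgE PC all 10 were called against D6, 6 higher and 4 lower, where 76.4% of all genes were called, 36.9% higher and 39.5% lower. Among the 4 lower in IgE PC was Cxcr3, again as a description. Itga4 was 7.74-fold higher there, Cxcr4 2.26-fold higher and Gpr183 4.401-fold lower. In IgG1 PC 7 were called, 6 higher and 1 lower, where 71.9% of all genes were called, 35.9% higher and 36.0% lower. Ccr6 was 11.7-fold higher and Gpr183 2.32-fold lower. In IgG1 PC, total-count scaling gave 5 higher and 2 lower, where 65.0% of all called genes were lower. On the TPM scale the splits were 5 and 4 in IgG1 PC and 3 and 4 in IgE PC. Of all genes called on that scale, 82.5% and 83.1% were lower.

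Scaling sets what counts as no change in the plasma cell comparisons. With TMM the median over all genes lay between -0.08 and 0.01 in the 9 contrasts. With total-count scaling it was -0.55 in the IgE step, -0.22 in the IgG1 step, -0.30 between the PC isotypes, -0.57 from D6 to IgE PC and -0.27 from D6 to IgG1 PC, and on the TPM scale -0.57, -0.46, -0.14, -0.69 and -0.55. Measured against those medians, Cxcr4 and Itga4 in the IgE step (0.64 and 0.42 with total counts, 0.37 and 0.10 on the TPM scale) lay above the typical gene on every scale. Ccr6, Ccr7, Cxcr5, Gpr183 and Itgb7 lay below it.

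**Figure D4:**
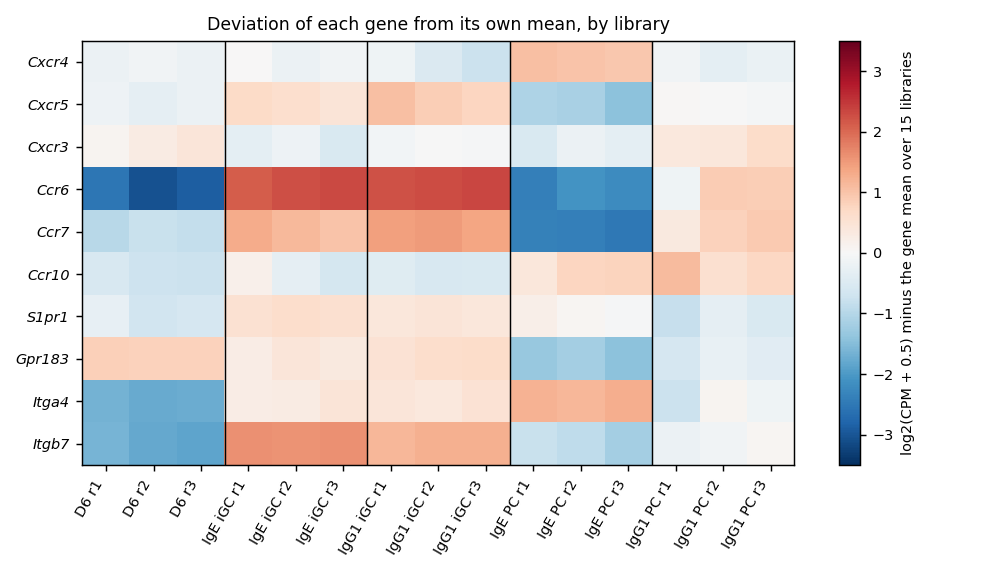
Each gene's log2(CPM + 0.5) minus its own mean over the 15 libraries, by library (columns, grouped by vertical lines); red is above and blue below that mean. Ccr6, Ccr7 and Itgb7 are red in all 6 iGC libraries and blue in all 3 IgE PC libraries.

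Genes that work with the 10 were read from a list of 117 related genes, of which 96 passed the filter on low counts. In the IgE step 74 were called (25 higher, 49 lower), in the IgG1 step 74 (24 and 50), between the PC isotypes 67 (28 higher in IgE, 39 lower) and between the iGC isotypes 12 (5 and 7). Over all genes, 64.1%, 59.1%, 58.1% and 3.87% were called in these comparisons. With total-count scaling the splits were 16 and 64, 16 and 58, and 17 and 54 in the first 3 of these, where 76.7%, 68.0% and 76.2% of all called genes were lower. On the TPM scale the 4 splits were 11 and 68, 8 and 64, 14 and 39, and 4 and 2, where 84.0%, 84.6%, 69.1% and 44.4% of all called genes were lower. The median of the 96 was -0.42 in the IgE step, -0.37 in the IgG1 step and -0.10 between the PC isotypes.

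Among 8 other chemokine receptors tested, 7 were called in the IgE step (2 higher, 5 lower), where 64.1% of all genes were called. Ackr2, one of the scavenger receptors that take up chemokines without signalling through G proteins, averaged 43.7 ± 5.36 CPM in IgE iGC, 61.2 ± 2.38 in IgG1 iGC, 19.1 ± 3.94 in IgG1 PC and 2.3998 ± 0.0876 in IgE PC, so that it was 7.97-fold lower in IgE PC than in IgG1 PC (log2 fold change -3.00 ± 0.18 (SE), adjusted p = 4.3e-09). Ackr4, which takes up the CCR7 ligands, fell from 9.18 ± 0.422 CPM in IgE iGC to 0.0935 ± 0.0232 in IgE PC (log2 fold change -6.55 ± 0.24 (SE), adjusted p = 2.4e-12). Ackr3, which takes up the CXCR4 ligand CXCL12, was at 7.66 ± 0.436 CPM in IgG1 iGC and 2.81 ± 0.115 in IgE iGC (log2 fold change -1.44 ± 0.19 (SE), adjusted p = 3.7e-04), and at 3.13 ± 0.679 and 0.2397 ± 0.104 in the matching PC (log2 fold change -3.68 ± 0.26 (SE), adjusted p = 1.6e-08). Ccrl2, a receptor that presents chemerin, went the other way, from 0.956 ± 0.062997 CPM in IgE iGC to 13.8 ± 0.513 in IgE PC (log2 fold change 3.84 ± 0.17 (SE), adjusted p = 1.2e-11). In IgE PC, Ackr4 and Ackr3 were close to the detection limit, so the sizes of their differences from that group are uncertain. Of the members' ligands, Cxcl13 was at 0 in all 15 libraries and Cxcl12 averaged 2.75 ± 1.09 CPM in D6, where feeder markers were highest, and at most 1.06 in the other groups.

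Of 12 other lipid receptors tested, 10 were called in the IgE step (2 higher, 8 lower) and 9 in the IgG1 step (1 higher, 8 lower), where 64.1% and 59.1% of all genes were called. S1pr2, which confines germinal centre B cells and opposes S1PR1, averaged 63.2 ± 4.98 CPM in IgE iGC against 34.2 ± 1.24 in IgG1 iGC (log2 fold change 0.89 ± 0.08 (SE), adjusted p = 8.1e-06). It fell to 13.2 ± 0.749 CPM in IgE PC and 17.5 ± 1.63 in IgG1 PC, a difference between steps of -1.29 (adjusted p = 5.3e-07). S1pr3 fell from 96.4 ± 9.15 CPM to 9.71 ± 1.42 in the IgE step and from 92.2 ± 10.4 to 26.5 ± 3.996 in the IgG1 step (log2 fold changes -3.31 (adjusted p = 1.2e-11) and -1.79 (adjusted p = 1.2e-08)). S1pr4 stayed between 42.9 and 68.99 CPM in the group means, and its PC isotypes did not differ past the threshold (log2 fold change -0.08 ± 0.12 (SE), adjusted p = 0.58). Cnr2, the cannabinoid receptor of B cells, fell by 2.40 on the log2 scale in the IgE step and by 1.27 in the IgG1 step.

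Of 29 genes of receptor signalling and desensitisation tested, 19 were called between the PC isotypes (8 higher in IgE, 11 lower), where 58.1% of all genes were called. Cd69, which pulls S1PR1 off the membrane, read 92.5, 98.7 and 129.9 CPM in IgE PC, 29.99, 42.2 and 36.4 in IgG1 PC, 30.3, 36.5 and 45.5 in IgE iGC and 32.1, 37.1 and 41.2 in IgG1 iGC. Every IgE PC library was above all of these, and Cd69 rose 2.88-fold in the IgE step (log2 fold change 1.53 ± 0.17 (SE), adjusted p = 1.3e-06) with no called change in IgG1 (log2 fold change -0.02 ± 0.16 (SE), adjusted p = 0.94); the interaction was 1.54 (adjusted p = 1.3e-04). Klf2, a transcription factor known to drive S1pr1 and Itgb7 in lymphocytes, read 29.6, 29.8 and 23.3 CPM in IgE PC, 52.1, 63.9 and 67.05 in IgG1 PC and averaged 166 in IgE iGC and 172 in IgG1 iGC. It fell 6.03-fold in the IgE step (log2 fold change -2.59 ± 0.12 (SE), adjusted p = 4.6e-11) and 2.81-fold in IgG1 (log2 fold change -1.49 ± 0.12 (SE), adjusted p = 4.4e-08). Rgs2, a brake on G protein signalling, averaged 3.09 ± 0.604 CPM in IgE PC and 25.04 ± 5.05 in IgG1 PC (log2 fold change -3.01 ± 0.16 (SE), adjusted p = 1.3e-09), while Rgs1 averaged 3.35 to 6.79 CPM over the 5 groups with no called difference between the PC isotypes (adjusted p = 0.13).

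Of 19 other adhesion genes tested, 13 were called between the PC isotypes (4 higher in IgE, 9 lower), against 58.1% of all genes. Selplg, the selectin ligand PSGL-1, averaged 107 ± 1.99 CPM in IgE PC and 97.5 ± 18.3 in IgG1 PC, up from 30.99 ± 2.02 and 27.7 ± 3.08 in the matching iGC (log2 fold changes 1.79 (adjusted p = 1.1e-09) and 1.81 (adjusted p = 2.6e-09)). Alcam, an adhesion molecule of the immunoglobulin family, rose in both isotypes too (1.59 (adjusted p = 2.4e-11) and 1.36 (adjusted p = 4.1e-10)) and was higher in IgE PC (0.58 (adjusted p = 5.8e-06)). Among 18 genes of integrin activation, 12 were called between the PC isotypes (7 higher, 5 lower in IgE), also near that share. Ptk2, the focal adhesion kinase, was lower in IgE PC (log2 fold change -1.69 ± 0.12 (SE), adjusted p = 1.5e-08). Rasgrp2, the exchange factor that switches on RAP1, was lower in PC of both isotypes (-2.42 (adjusted p = 7.2e-11) in IgE, -1.44 (adjusted p = 5.0e-08) in IgG1), and Rap1a was higher in IgE PC than in IgG1 PC (0.86 (adjusted p = 5.2e-07)).

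**Figure D5:**
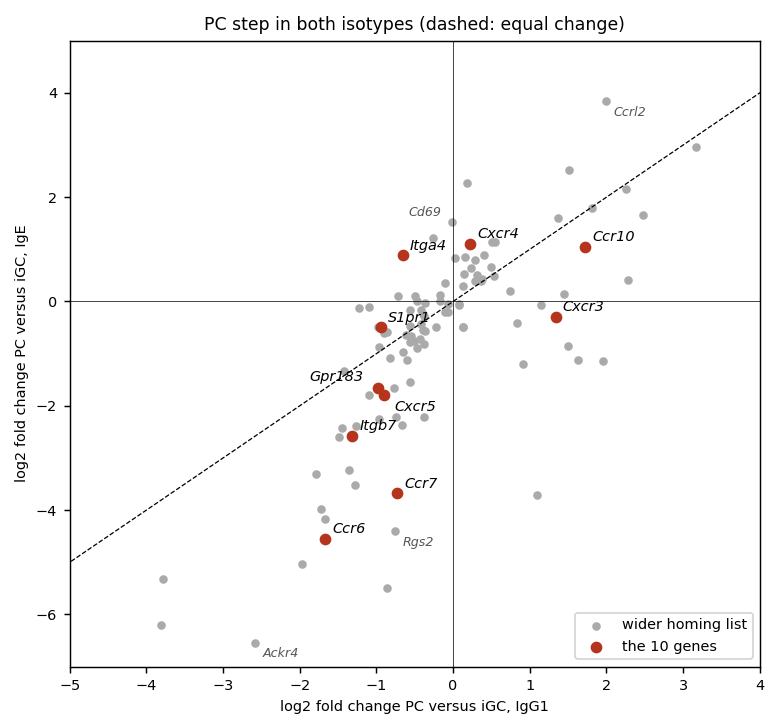
Log2 fold change from iGC to PC in IgG1 (x axis) against IgE (y axis) for the 10 genes (red) and the 96 related genes tested (grey); the dashed line marks equal change. Ccr6, Ccr7 and Itgb7 lie below the line, and Itga4 and Cxcr4 lie above it.

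The genes most like each member over the 15 libraries were found by the root mean square difference of log2(CPM + 0.5), each gene centred on its own mean, among 9860 genes with a group mean of at least 5 CPM. This likeness is a description over libraries that share groups and scaling. Fyn was closest to Cxcr4 (difference 0.134), Dpp7 to Cxcr5 (0.131), Ankrd44 to S1pr1 (0.0811) and Bzw2 to Gpr183 (0.101). The members with wide spans had looser neighbours: Nxpe2 for Ccr6 (0.358), Chst10 for Ccr7 (0.251), Rfx3 for Itga4 (0.295) and Gimap7 for Itgb7 (0.230). Cxcr3 and Ccr10 were below the level needed. Among the 10 themselves, Cxcr5 and Gpr183 were the closest pair (0.553), several times farther apart than either was from its own nearest gene.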

How the data were processed

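RNA-seq of 15 libraries of cultured mouse B cells, 12 of them sorted fractions, was read from a single deposited table. The authors deposited, per the file headers, RSEM expected counts and TPM for 51912 Ensembl genes; expected counts need not be whole, and the TPM values were scaled by the authors for length and library total. Per the submitters' processing notes, cutadapt 1.9.1, STAR 2.5.2a, RSEM 1.3.0 and DESeq2 1.12.3 were used with GRCm38; the annotation release is not given in the sources used here. Symbols were paired for 51633 identifiers. Groups came from the sample titles.

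Expected counts were rounded, filtered with filterByExpr (minimum count 10, minimum total 15; 15692 genes left), scaled by TMM and fitted with 1 mean per group over all 15 libraries by edgeR 4.0.16 (R 4.3.3) with robust glmQLFit and glmQLFTest. The biological coefficient of variation was 10.4%. Adjusted p-values are Benjamini-Hochberg over all genes tested, and genes under 0.05 were called. The standard error is the log2 fold change over the square root of F and is approximate. The interaction tests whether the step from iGC to PC differed between isotypes. Intervals and tests cover counting error and the spread between biological replicates of a culture. The fit was tested on simulated data.

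Alternatives were DESeq2 1.42.0, RLE or total-count scaling, no filter, a replicate block, only the groups compared, limma 3.58.1 on log2(TPM + 0.5), and leaving out each library in turn. All 10 members are named. Of the related genes, those named were taken from the partners of members and, per role, up to 3 with the largest called change and a mean of at least 5 CPM. A gene that this rule would name is not reported here. The members, lists and tests were chosen with earlier results of these data known.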

Additional observations from a re-analysis of the deposited data

Results flagged for a closer look

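For 8 of the 10 genes the step from iGC to PC differed between IgE and IgG1 cells by the interaction test of edgeR. The value is the log2 change in IgE minus that in IgG1, from the fit over all 15 libraries. Of all genes, 42.9% were called. Cxcr4 differed by 0.89 (adjusted p = 5.0e-04), with a rise in IgE and no called change in IgG1. The value was 1.55 for Itga4 (adjusted p = 3.6e-05), which rose in IgE and fell in IgG1. S1pr1 gave 0.46 (adjusted p = 0.03), a smaller fall in IgE, with the call lost in 9 of 19 alternatives. A larger fall in IgE was found for Ccr7 at -2.94 (adjusted p = 3.9e-08), Ccr6 at -2.87 (7.9e-06), Itgb7 at -1.26 (2.6e-06), Cxcr5 at -0.89 (1.1e-04) and Gpr183 at -0.68 (2.1e-04).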

How the results depend on the processing

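Counts of called members kept within 1.5 times their value in 8 of the 9 comparisons under every alternative run. The exception was IgE iGC against IgG1 iGC, where 1 member was called. The count was 0 with total-count scaling and on the TPM scale, 4 with only the groups compared and 2 with DESeq2. It was 2 with the replicate block and 0 to 1 when single libraries were left out. Of all genes, 607 were called in the main fit, 1503 with only the groups compared and 937 with DESeq2. The replicate block called 580, total-count scaling 555 and the TPM scale 399. The sample titles do not say whether same-numbered libraries came from the same culture. Same-numbered libraries deviated from their group means with a mean correlation of -0.0068 (range -0.238 to 0.130 over 30 pairs of libraries). Such a correlation over all genes tested cannot show whether the libraries were paired. The replicate block changed 1 of 90 log2 fold changes and interactions across the threshold, Cxcr5 between the iGC isotypes (-0.31). Directions turned with total-count scaling for Cxcr4 in the IgG1 step (-0.015) and Cxcr5 from D6 to IgG1 PC (-0.049). With limma on TPM they turned for Cxcr4 in the IgG1 step (-0.32) and from D6 to IgE iGC (-0.10), for Cxcr5 (-0.53) and Cxcr3 (-0.12) from D6 to IgG1 PC, and for Ccr6 (-0.26), S1pr1 (-0.28) and Itgb7 (-0.036) from D6 to IgE PC. Leaving out single libraries turned the direction of 4 values, none of them called: the range over these was -0.10 to 0.020 for Cxcr4 and -0.14 to 0.10 for S1pr1 from D6 to IgG1 PC, -1.22 to 0.45 for Cxcr3 in the IgE step and -0.31 to 0.0095 for Ccr10 between the PC isotypes. With only the groups compared, Cxcr3 fell below the count filter in 2 contrasts and has no value there. The cause was not tested. Cxcr3 and Ccr10 are limited by depth, and 3 libraries per group limit all tests.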
